A study of Mus musculus with 12 samples.

Results

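Obese mice injected with vehicle were compared with obese mice that received no injection, by RNA sequencing of gonadal white adipose tissue. Both groups were C57BL/6N mice, an inbred laboratory strain, fed a high-fat diet (HFD) for 18 weeks from an age of 6 weeks. The HFD Vehicle group (libraries 23, 50 and 55) was given 30% DMSO in corn oil intraperitoneally once a day for 4 days. The HFD group (libraries 4, 30 and 38) has no treatment stated in the labels. These 6 of the 12 libraries enter the comparison, first all together and then with HFD Vehicle 50 left out. Of the other 6, the Chow libraries are from mice on regular chow with no treatment stated, and the HFD PCN libraries are from obese mice injected with 50 mg/kg PCN, an activator of the pregnane X receptor, on the vehicle's schedule. They are used for levels, in the TMM scaling behind those levels and in 1 alternative fit over all groups. The labels state no sex, no handling or sham injection of the uninjected mice, no hour of tissue collection and no separate animal behind each library, and p-values here measure spread among libraries that may be technical replicates.

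The uninjected and the vehicle libraries were deposited in different tables, so injection and table cannot be told apart in any difference below. The comparison rests on the 28008 genes listed in both tables. The series is titled as fat, but its source labels say duodenum. The adipocyte gene Fabp4, a fatty acid carrier, was at 3898, 2811 and 4342 CPM against 4301, 3307 and 3543 CPM, with vehicle libraries in the order 23, 55 and 50 and uninjected libraries in the order 4, 30 and 38, as throughout. The intestinal adhesion gene Cdh17 was at 0, 0 and 0.366 CPM against 0.0724, 0 and 0.0584 CPM, and Epcam, an epithelial surface protein, at 0.194, 0 and 0.274 CPM against 0.181, 0.0701 and 0.0584 CPM. The libraries thus hold the markers of fat, and the intestinal markers were at or near 0.

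Gonadal fat of obese mice holds lipid-filled adipocytes, many macrophages, blood vessels and a stroma of fibroblast-like progenitors that can become adipocytes. Glucocorticoid, heat shock and immediate early genes are known to respond to stress, and the circadian clock and the sterol-sensing SREBP pathway, which sets cholesterol synthesis, to feeding. The transcription factor NRF2 switches on genes for glutathione synthesis, peroxide removal and NADPH supply by binding antioxidant response elements. Gonadal fat lies in the peritoneal cavity, into which vehicle and PCN were injected, and comparing vehicle with no injection asks what the repeated injection and its solvent go with in this tissue.

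HFD Vehicle 50 stood apart from the other 5 libraries. It had 11090117 counts, against 16646176 to 27408092 in the others. Its correlation with the HFD libraries on the log scale averaged 0.890, against 0.987 and 0.991 for the other vehicle libraries. Its correlation with the Chow libraries averaged 0.973, against 0.915 and 0.898 for HFD Vehicle 23 and 55 and 0.891 to 0.895 for the HFD libraries, so the library labelled HFD Vehicle 50 lay nearer to Chow than to its own diet group by this measure. The pan-macrophage gene Adgre1 was at 69.1 CPM in it, against 889 to 955 CPM in the other 5 libraries and 76.1, 43.9 and 28.05 CPM in Chow 8, 17 and 19. The matrix gene Lum was at 238, 218 and 13.99 CPM in HFD Vehicle 23, 55 and 50 and at 41.2, 13.7 and 12.9 CPM in those Chow libraries. Mitochondrially encoded ribosomal RNA took 7.60% of the counts of library 50 and 6.07%, 9.74% and 28.9% of those of Chow. The same share was 2.56% and 2.11% in HFD Vehicle 23 and 55 and at most 1.79% in HFD 4, 30 and 38, so it was higher in every vehicle library than in any uninjected one, also without library 50. CPM, the share of a library's counts on a common scale, was computed after TMM scaling of all 12 libraries together. Gm26917 (chromosome 17, 39843013 to 39846341), a predicted gene known to collect reads of ribosomal RNA, was at 12746, 14535 and 43862 CPM against 3863, 4773 and 4775 CPM. All vehicle libraries were above all uninjected ones, and the gene passed the test without library 50 (log2 fold change 1.61 ± 0.14, adjusted p = 0.013). The level of this gene and the share of mitochondrial ribosomal RNA went with the groups, and so with every difference below, and their part in them was not tested.

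With all 6 libraries, no gene of 16781 passed edgeR's quasi-likelihood test at an adjusted p of 0.05 (0%), and the smallest adjusted p was 0.485. At an unadjusted p under 0.05 there were 1639 genes (9.77%), 1197 of them higher (7.13%) and 442 lower (2.63%) in the vehicle group. DESeq2 called 91 genes on the same counts, limma-voom called none and limma-voom with a weight for each library called 1. That weight was 0.0677 for HFD Vehicle 50 and 0.667 to 2.95 for the other 5 libraries. The groups did not overlap for 4733 genes (28.2%). Leaving out HFD Vehicle 50 gave 172 calls, and leaving out any other library gave none.

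The 5 genes with the smallest p over all 6 libraries were all lower after vehicle, though none passed. Mgam, a gut enzyme that splits starch fragments, was at 0.97, 1.12 and 0.64 CPM against 6.44, 6.17 and 4.96 CPM (log2 fold change -2.64 ± 0.28, adjusted p = 0.485). Aspn, a small matrix proteoglycan of connective tissue, was at 34.6, 30.6 and 32.7 CPM against 67.9, 68.2 and 61.4 CPM (log2 fold change -0.997 ± 0.12, adjusted p = 0.485). Gclm, the regulatory subunit of the enzyme that makes the first step of glutathione synthesis, was at 26.7, 27.1 and 18.3 CPM against 71.8, 56.1 and 65.8 CPM (log2 fold change -1.41 ± 0.19, adjusted p = 0.485). In these 3 genes, library 50 lay with the other vehicle libraries, below all uninjected libraries. The remaining 2 were the Wnt ligand Wnt2, at 0.349, 0.267 and 0.274 CPM against 1.19, 1.89 and 1.52 CPM, and Cd34, a surface marker of adipose progenitors, at 76.9, 57.6 and 52.7 CPM against 151, 149.6 and 128 CPM. The Wnt2 values rest on 9, 5 and 3 counts in the vehicle libraries and 33, 54 and 26 counts in the uninjected ones.

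With HFD Vehicle 50 left out, 172 of 17313 genes passed the same test (0.993%), 100 higher (0.578%) and 72 lower (0.416%) after vehicle. At an unadjusted p under 0.05 there were 2889 genes (16.7%), 1539 higher (8.89%) and 1350 lower (7.8%). The changes were modest. The median log2 fold change was 0.77 among genes that rose and -0.90 among genes that fell, and 22 of the former and 31 of the latter changed at least 2-fold. The median of all genes tested was 0.00, which the TMM scaling itself sets near 0. The test used 1 spread per gene for both groups, although the vehicle libraries varied more. Library weights in limma-voom were 0.501 and 0.510 for HFD Vehicle 23 and 55 and 1.48 to 1.72 for the HFD libraries. The standard errors may therefore be too small for the vehicle group. The 172 calls also depended on the uninjected libraries. Without HFD 4, without HFD 30 or without HFD 38, no gene passed, with 1648, 2191 and 1796 genes at an unadjusted p under 0.05. No gene passed when all groups shared 1 estimate of the spread (1010 genes at an unadjusted p under 0.05) or when the fold was tested against 1.5 (449 genes). The calls in each gene list below were lost with them. With a single vehicle library, assumed to vary like the uninjected ones, 2221 genes passed without HFD Vehicle 23 and 1054 without HFD Vehicle 55.

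**Figure D1:**
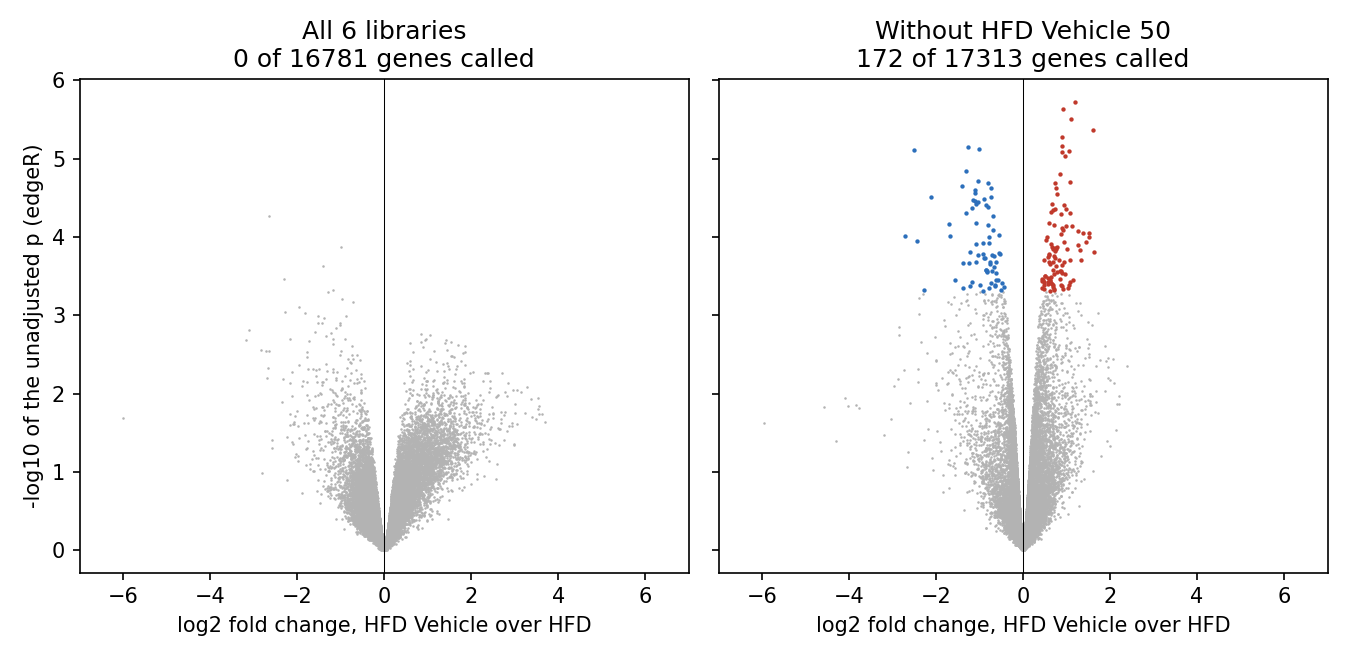
Each point is a gene tested, with the log2 fold change of HFD Vehicle over HFD on the x axis and -log10 of the unadjusted edgeR p on the y axis, for all 6 libraries (left) and without HFD Vehicle 50 (right). Red and blue points are genes called higher and lower at an adjusted p of 0.05: none of 16781 on the left, and 100 and 72 of 17313 on the right.

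Library 50 took no part in the second fit, and its values for the called genes can be set beside it. Of the 172 genes, whose groups did not overlap without it, 165 (95.9%) still did not overlap with it included. Of all 6059 genes whose groups did not overlap without it, 4821 (79.6%) still did not. Both counts use the same uninjected libraries, so neither is read alone. The called genes were also selected for a large difference against their spread, and the 6059 were not. The higher share among the called genes is therefore no sign that library 50 goes with the calls. Since library 50 also lay near Chow, its place beside the called genes is a description of that library and no replicate of the vehicle difference.

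The lists that follow are plotted together, each with its median in both fits. Without library 50, 8.89% of all genes tested were higher and 7.8% lower at an unadjusted p under 0.05, and 0.578% and 0.416% were called. The counts in each list are to be read against these shares.

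**Figure D2:**
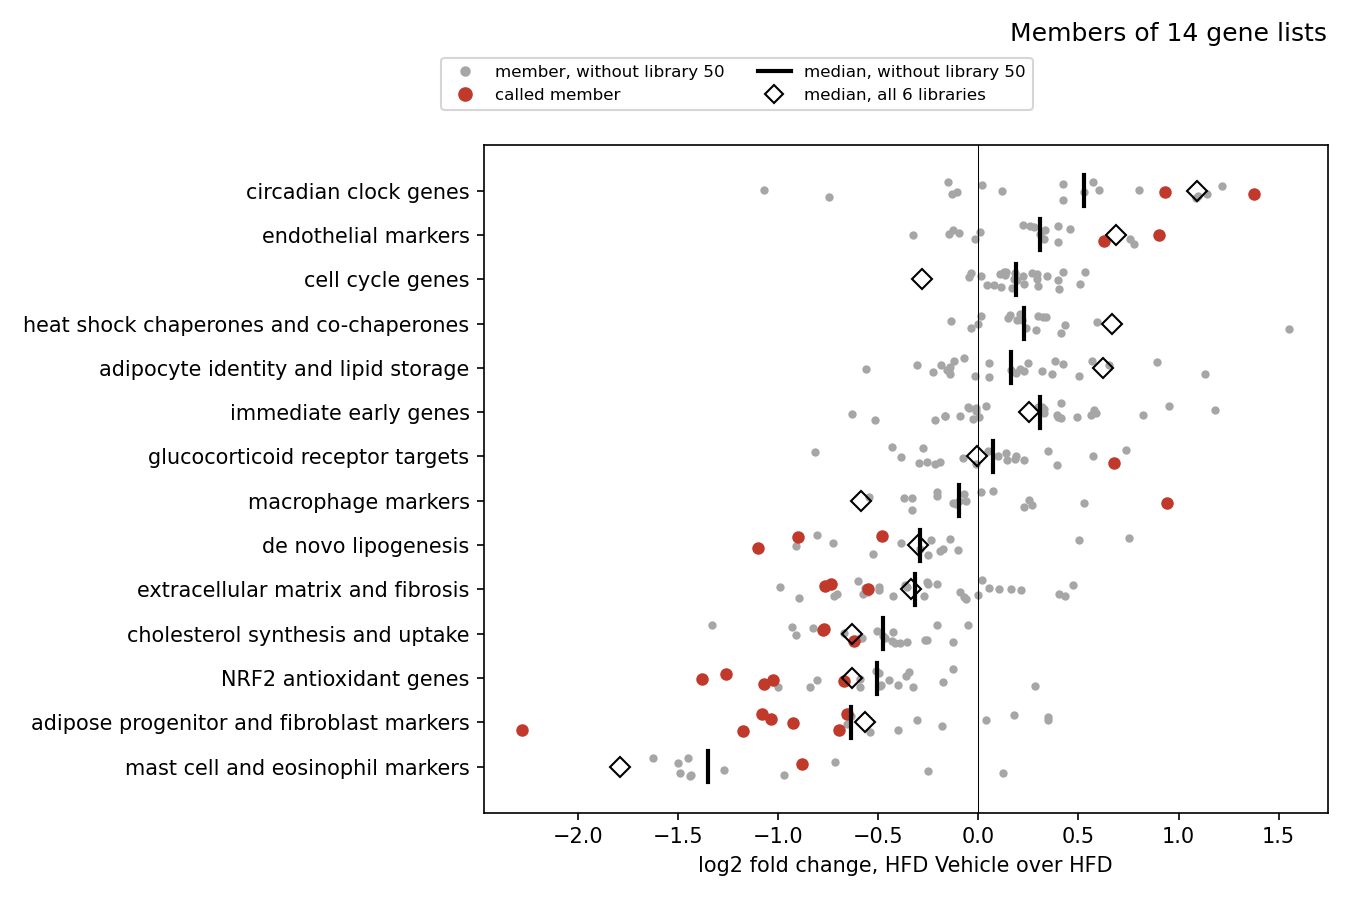
Log2 fold change of HFD Vehicle over HFD for each tested member of 14 lists without HFD Vehicle 50 (grey), with called members in red, the list median as a bar and the median with all 6 libraries as a diamond. The clock and endothelial medians lie above 0 in both fits (0.53 and 0.31 without library 50), the antioxidant, cholesterol, progenitor and mast cell medians below 0 in both (-0.51, -0.48, -0.64 and -1.35), and the cell cycle median changes sign, from 0.19 without library 50 to -0.28 with it.

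Several antioxidant genes fell. Of 22 NRF2 targets tested, 5 were called lower and none higher, 16 were lower and none higher at an unadjusted p under 0.05, and the median log2 fold change was -0.51 (-0.63 with all 6 libraries, none called). Gclm fell 2.40-fold without library 50 (log2 fold change -1.26 ± 0.12, adjusted p = 0.013). Slc7a11, which brings cystine into the cell for glutathione, was at 5.08, 5.01 and 0.64 CPM against 13.8, 10.03 and 15.9 CPM and fell 2.61-fold (log2 fold change -1.38 ± 0.21, adjusted p = 0.0348). Srxn1, which repairs oxidised peroxiredoxins, was at 75.5, 88.9 and 21.03 CPM against 184, 141 and 194 CPM (log2 fold change -1.07 ± 0.15, adjusted p = 0.0299). Prdx1, one of those peroxiredoxins, which remove hydrogen peroxide, was at 600.1, 738 and 116 CPM against 1409, 1150.2 and 1529 CPM (log2 fold change -1.03 ± 0.15, adjusted p = 0.033). For all 4 genes every vehicle library was below every uninjected library, and HFD Vehicle 50 was the lowest of all. Taldo1, an enzyme of the pentose phosphate pathway that was named after its values were seen, was the fifth, at 167, 183 and 132 CPM against 292, 248 and 298 CPM (log2 fold change -0.67 ± 0.10, adjusted p = 0.0368). Classical targets that did not pass included Nqo1, a quinone reductase, at 4.66, 2.77 and 2.29 CPM against 9.05, 6.06 and 7.53 CPM (adjusted p = 0.13). Hmox1, which breaks down heme, overlapped between the groups, at 182, 384 and 108 CPM against 373, 309.8 and 408 CPM (adjusted p = 0.564). Other NADPH and detoxification genes were picked out of the 172 after their values were seen. Akr1b8, an aldo-keto reductase, was at 92.7, 89.7 and 6.68 CPM against 238, 169 and 212 CPM (log2 fold change -1.18 ± 0.14, adjusted p = 0.0201), and Cbr3, a carbonyl reductase, at 9.43, 8.05 and 3.02 CPM against 17.1, 14.3 and 16.1 CPM (log2 fold change -0.85 ± 0.13, adjusted p = 0.0395). H6pd, an NADPH-making enzyme of the endoplasmic reticulum, was called higher instead. It was at 408, 406 and 766 CPM against 308, 287 and 276 CPM (log2 fold change 0.49 ± 0.08, adjusted p = 0.0457).

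The promoters of the 5 called antioxidant genes were searched for the core of the antioxidant response element, TGACNNNGC, on both strands in the 250 bases before each RefSeq start (build GRCm38.p6). The core is in 10.2% of all 32851 promoter windows of that length. Gclm and Prdx1 each held 1 match, and none was found in the windows of Slc7a11, Srxn1 and Taldo1. The 2 windows with a match are shown with the matched bases in capitals, since the motif is the one NRF2 is known to bind. The Gclm stretch is chr3:122245307-122245556 on the plus strand, with its match beginning 134 bases before the RefSeq start. The Prdx1 stretch is chr4:116685349-116685543 on the plus strand, with its match beginning 133 bases before that start, and it is printed up to the gene start given in the deposited tables, which lies inside the searched window.
Gclm: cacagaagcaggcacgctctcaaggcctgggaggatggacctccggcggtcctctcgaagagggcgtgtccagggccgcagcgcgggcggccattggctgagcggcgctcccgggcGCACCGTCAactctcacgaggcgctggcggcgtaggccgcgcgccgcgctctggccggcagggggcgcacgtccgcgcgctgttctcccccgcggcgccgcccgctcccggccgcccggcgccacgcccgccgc
Prdx1: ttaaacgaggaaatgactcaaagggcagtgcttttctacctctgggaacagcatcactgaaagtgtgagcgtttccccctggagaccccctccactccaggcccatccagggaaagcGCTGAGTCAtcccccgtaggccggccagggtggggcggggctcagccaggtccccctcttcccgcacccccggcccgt
A match is a description of these letters and not a bound site. The genes themselves lie at chromosome 3, 122245557 to 122270732 for Gclm and chromosome 4, 116685544 to 116700822 for Prdx1.

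A few cholesterol synthesis genes fell as well. Of 23 tested, 3 were called lower and none higher, 18 were lower and none higher at an unadjusted p under 0.05, and the median log2 fold change was -0.48 (-0.63 with all 6 libraries). Insig1, the sterol-regulated protein that holds the SREBP factors in the endoplasmic reticulum, was at 152, 120.2 and 60.99 CPM against 231, 228 and 239 CPM and fell 1.71-fold (log2 fold change -0.77 ± 0.11, adjusted p = 0.0296). Lss, which closes the sterol ring, was at 33.4, 29.9 and 24.6 CPM against 48.8, 55.98 and 58.3 CPM (log2 fold change -0.78 ± 0.11, adjusted p = 0.0274). Nsdhl, a later demethylation step, was at 16.03, 15.1 and 9.97 CPM against 25.8, 23.3 and 22.7 CPM (log2 fold change -0.62 ± 0.10, adjusted p = 0.0452). Each of these 3 genes was lower in every vehicle library, library 50 included, than in any uninjected one. The transcription factor Srebf2 was at 39.2, 65.7 and 54.7 CPM against 48.4, 61.4 and 61.9 CPM, and its groups overlapped.

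Of 17 lipogenesis genes, 3 were called lower and none higher, with a median log2 fold change of -0.29 (-0.30 with all 6 libraries). Acss2, which makes acetyl-CoA from acetate, fell 2.14-fold, from 56.05, 60.7 and 55.5 CPM to 30.3, 23.1 and 52.5 CPM (log2 fold change -1.10 ± 0.12, adjusted p = 0.0201). Scd2, a fatty acid desaturase, was at 118, 99.5 and 88.9 CPM against 187, 211 and 212 CPM (log2 fold change -0.90 ± 0.10, adjusted p = 0.0201). Acly, which makes acetyl-CoA from citrate, was at 211, 213 and 222 CPM against 279, 302 and 307 CPM (log2 fold change -0.48 ± 0.08, adjusted p = 0.0457). All vehicle libraries were again below all uninjected ones for these 3 genes, though for Acss2 library 50 was close to the uninjected range. Fatty acid synthase, Fasn, did not pass at 711, 483 and 1437 CPM against 1054, 1290.3 and 1024 CPM (log2 fold change -0.91 ± 0.18, adjusted p = 0.0635), and HFD Vehicle 50 held the highest value of the 6.

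**Figure D3:**
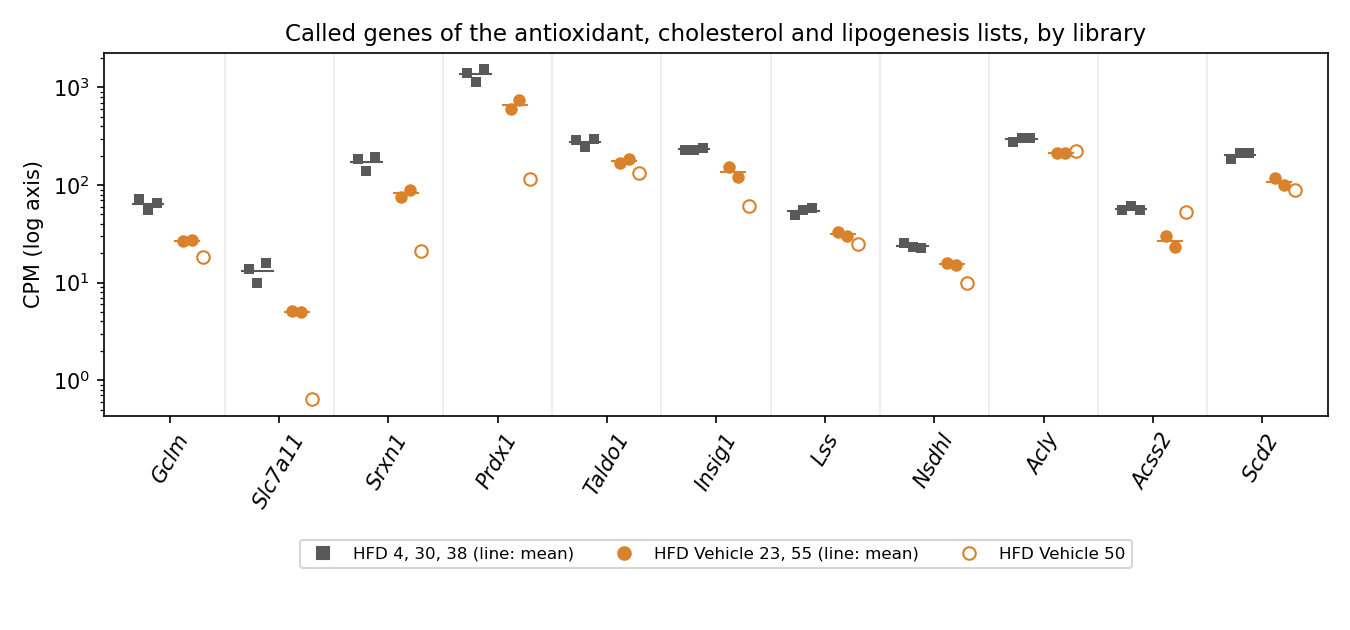
CPM (log axis) in each library for the called genes of the antioxidant, cholesterol and lipogenesis lists, with squares for HFD 4, 30 and 38, filled circles for HFD Vehicle 23 and 55, an open circle for HFD Vehicle 50, and lines at the means of the first 2 sets. For each gene the filled circles lie below the squares, as they do for every gene called lower. Library 50 ranges from far below the squares (Slc7a11, 0.64 CPM) to near them (Acss2, 52.5 CPM).

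Among the clock genes, Per2 and Per3 rose. Of 19 tested, Per2 and Per3 were called higher and none lower. At an unadjusted p under 0.05, 11 were higher and 2 lower, and the median log2 fold change was 0.53 (1.09 with all 6 libraries). Per2, a repressor in the clock's negative arm (chromosome 1, 91415982 to 91459324), was at 46.6, 67.02 and 341 CPM against 19.4, 19.9 and 26.6 CPM and rose 2.60-fold (log2 fold change 1.38 ± 0.18, adjusted p = 0.0272). Its relative Per3 (chromosome 4, 151003652 to 151044665) was at 73.3, 71.2 and 205 CPM against 30.2, 41.99 and 41.5 CPM (log2 fold change 0.93 ± 0.14, adjusted p = 0.0343). For both genes all vehicle libraries were above all uninjected libraries and library 50 was the highest.

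The next clock genes, named after their values were seen, missed the threshold. Dbp, an output factor that binds D-boxes, was at 31.97, 45.1 and 73.2 CPM against 11.98, 20.01 and 17.8 CPM (log2 fold change 1.21 ± 0.22, adjusted p = 0.0525), and its relatives Tef and Hlf were at 143, 121 and 287 CPM against 76.2, 92.8 and 91.4 CPM and 4.46, 3.73 and 17.6 CPM against 1.74, 2.21 and 1.58 CPM. Per1 was at 107, 86.7 and 216 CPM against 64.2, 71.5 and 59.3 CPM (log2 fold change 0.57 ± 0.12, adjusted p = 0.0663). Arntl, the activator that drives the Per genes, was on the other side, at 17.4, 10.9 and 10.6 CPM against 35.2, 27.6 and 27.1 CPM (log2 fold change -1.07 ± 0.21, adjusted p = 0.0591), and its partner-like factor Npas2 was at 4.58, 6.08 and 3.38 CPM against 9.99, 8.62 and 7.94 CPM. In each of these genes the groups did not overlap, library 50 included. The repressor Nr1d1 did overlap, with 21.7, 41.6 and 222 CPM against 15.2, 22.6 and 16.2 CPM, and Clock itself was at 120.1, 113 and 123 CPM against 135, 126 and 128 CPM (adjusted p = 0.367). The HFD PCN libraries took no part in the fit, and share the injection schedule and the deposited table with the vehicle libraries. In them Per2 was at 52.6, 95.9 and 89.9 CPM and Arntl at 9.54, 12.5 and 10.97 CPM.

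**Figure D4:**
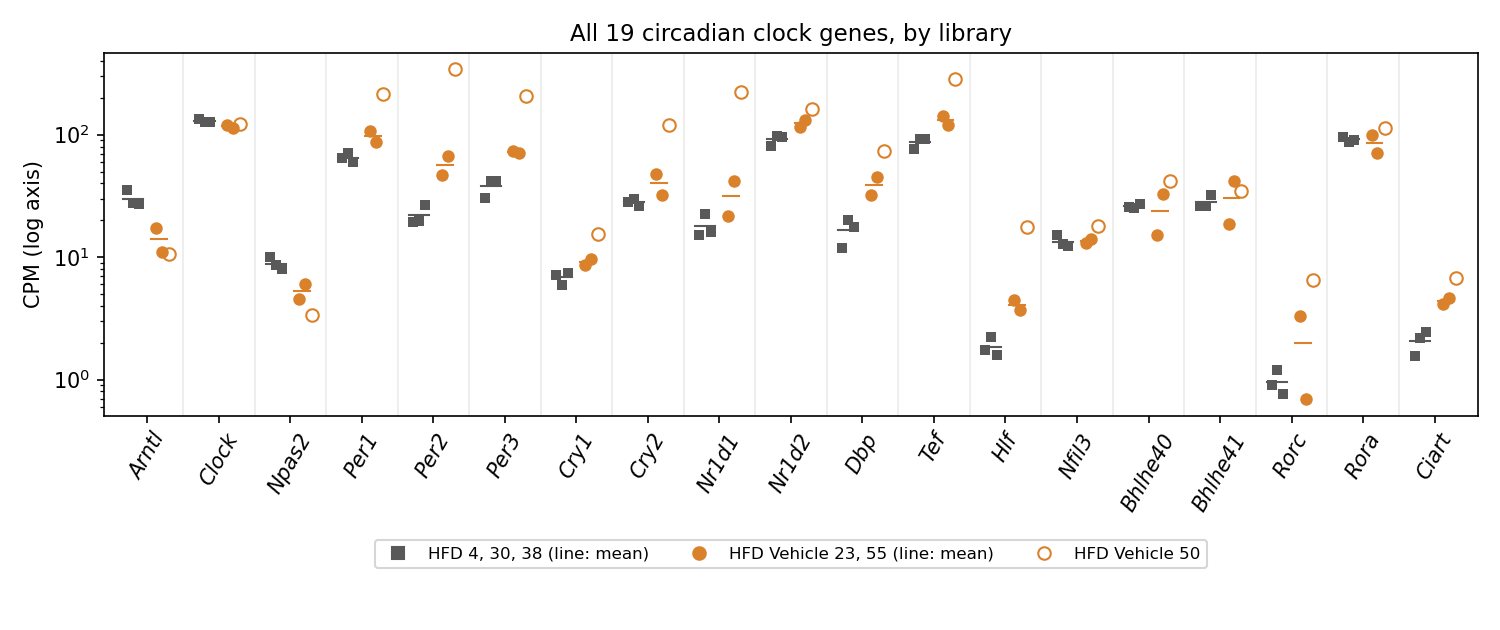
CPM (log axis) of the 19 clock genes in each library, with squares for the uninjected libraries, filled circles for HFD Vehicle 23 and 55, an open circle for HFD Vehicle 50, and lines at the means of the first 2 sets. All vehicle libraries lie above all uninjected ones for 10 genes (Per1, Per2, Per3, Cry1, Cry2, Nr1d2, Dbp, Tef, Hlf and Ciart) and below them for 3 (Arntl, Clock and Npas2), of which Per2 and Per3 passed the test. Over all 16781 genes tested with all 6 libraries, 13.5% lay above and 14.7% below in this way, and 3 of 19 is near the latter share.

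Markers of adipose progenitors and fibroblasts held the most calls of any list. Of 17 tested, 7 were called lower and none higher, and the median log2 fold change was -0.64 (-0.57 with all 6 libraries). In bulk tissue, fewer cells of a type and less RNA per cell cannot be told apart. Cd34 fell 2.12-fold without library 50 (log2 fold change -1.08 ± 0.14, adjusted p = 0.025). Thy1, a surface glycoprotein of stromal cells, was at 12.4, 15.7 and 8.05 CPM against 30.02, 28.01 and 27.98 CPM (log2 fold change -1.04 ± 0.12, adjusted p = 0.0201). The matrix proteoglycan Lum was at 238, 218 and 13.99 CPM against 356, 391.98 and 361 CPM (log2 fold change -0.70 ± 0.09, adjusted p = 0.0214), with library 50 far below all others. Sema3c, a guidance ligand, was at 55.5, 50.3 and 66.6 CPM against 81.8, 90.8 and 77.6 CPM (log2 fold change -0.66 ± 0.10, adjusted p = 0.033).

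The other 3 called members were named after their values were seen or by another part of the rule. Pi16, a marker of the early interstitial progenitors, was at 16.6, 23.7 and 34.7 CPM against 44.4, 53.8 and 37.5 CPM (log2 fold change -1.18 ± 0.19, adjusted p = 0.0457), and Cd55, a complement regulator on the same cells, at 19.9, 14.6 and 33.8 CPM against 36.6, 33.6 and 28.3 CPM (log2 fold change -0.93 ± 0.16, adjusted p = 0.0488). Library 50 lay within the uninjected range for Cd55 and below it for Pi16. Wnt2 was the seventh (log2 fold change -2.28 ± 0.39, adjusted p = 0.0488). Other progenitor genes did not pass. Pdgfra, the receptor that marks the whole lineage, was at 213, 172 and 92.9 CPM against 216, 238 and 201 CPM (log2 fold change -0.18 ± 0.12, adjusted p = 0.484). Pdgfrb was at 165, 204 and 177 CPM against 153, 175 and 161 CPM (log2 fold change 0.18 ± 0.11, adjusted p = 0.47). For both receptors libraries 23 and 55 overlapped the uninjected ones. The early progenitor marker Dpp4 was at 14.7, 9.81 and 23.6 CPM against 19.1, 22.4 and 16.5 CPM (log2 fold change -0.65 ± 0.20, adjusted p = 0.168).

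Matrix genes gave 3 calls of 32, all lower, with 16 lower and 2 higher at an unadjusted p under 0.05 and a median log2 fold change of -0.32 (-0.34 with all 6 libraries). Mmp2, a gelatinase of stromal cells, was at 164, 149 and 47.5 CPM against 272, 297 and 232 CPM (log2 fold change -0.77 ± 0.12, adjusted p = 0.0352). Loxl2, which cross-links collagen, was at 51.9, 51.2 and 15.3 CPM against 74.4, 77.7 and 74.3 CPM (log2 fold change -0.55 ± 0.07, adjusted p = 0.0274). Col15a1, a basement membrane collagen, was at 302, 285 and 669 CPM against 469, 497 and 501 CPM (log2 fold change -0.74 ± 0.08, adjusted p = 0.0198). For Col15a1 library 50 held the highest value of the 6, so its direction there was opposite to that in libraries 23 and 55. The main fibrillar collagen Col1a1 was at 764, 1087 and 723 CPM against 669, 922 and 803 CPM (adjusted p = 0.595). Matrix genes outside the list, named after their values were seen, included Mfap5, a microfibril protein, at 57.4, 71.6 and 21.7 CPM against 144, 147 and 125 CPM (log2 fold change -1.11 ± 0.12, adjusted p = 0.0198), and the proteoglycan Vcan at 77.2, 82.7 and 28.9 CPM against 147, 142 and 129.9 CPM (log2 fold change -0.81 ± 0.09, adjusted p = 0.0198). Other matrix genes outside the list were called higher, so the direction was mixed. Named in the same way, they included Svep1 (log2 fold change 0.69 ± 0.10, adjusted p = 0.0343), Fbln5 (0.51 ± 0.08, adjusted p = 0.0431), Lama5 (0.85 ± 0.14, adjusted p = 0.0452), Prelp (0.57 ± 0.09, adjusted p = 0.0463) and Smoc1 (0.68 ± 0.12, adjusted p = 0.0463).

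Endothelial markers gave calls in the other direction. Of 19 tested, 2 were called higher and none lower, 10 were higher and 1 lower at an unadjusted p under 0.05, and the median log2 fold change was 0.31 (0.69 with all 6 libraries). Flt1, a receptor for the growth factor VEGF (chromosome 5, 147561604 to 147726011), was at 107, 120.5 and 413 CPM against 58.2, 61.5 and 62.96 CPM and rose 1.87-fold (log2 fold change 0.90 ± 0.08, adjusted p = 0.013). Egfl7, a protein secreted by endothelium, was at 41.4, 44.2 and 147 CPM against 29.2, 24.6 and 29.5 CPM (log2 fold change 0.63 ± 0.10, adjusted p = 0.0452), and 11.2% of its exon bases are shared with other genes, so its count is uncertain. The defining junction and adhesion genes did not pass. Pecam1 was at 141, 142 and 264 CPM against 142, 138 and 149.98 CPM (log2 fold change -0.01 ± 0.07, adjusted p = 0.944), with no separation of libraries 23 and 55 from the uninjected ones. Cdh5 was at 94.8, 129 and 344 CPM against 89.97, 87.8 and 89.01 CPM (log2 fold change 0.33 ± 0.13, adjusted p = 0.251), and Cldn5 at 35.9, 49.4 and 89.3 CPM against 53.2, 53.7 and 53.03 CPM (log2 fold change -0.32 ± 0.13, adjusted p = 0.279). Library 50 held the highest value of the 6 for each of these 5 genes. Several other called genes are known to be high in blood vessels, were named after their values were seen, and did not all move in 1 direction. Procr, the endothelial protein C receptor, was called lower, at 11.7, 14.1 and 7.77 CPM against 30.4, 24.1 and 37.3 CPM (log2 fold change -1.25 ± 0.19, adjusted p = 0.035). Cd34, above, which endothelium also carries, was called lower too. Epas1, a hypoxia-inducible factor, was at 309, 352 and 777 CPM against 133, 169.5 and 162 CPM (log2 fold change 1.09 ± 0.12, adjusted p = 0.0198). Aqp1, a water channel, was at 422, 435 and 552 CPM against 237, 266 and 262 CPM (log2 fold change 0.75 ± 0.08, adjusted p = 0.0198), and the phosphatase Ptprb at 279, 259.9 and 841 CPM against 166, 179 and 175 CPM (log2 fold change 0.64 ± 0.08, adjusted p = 0.0205). Gm26917, above, moved in the same direction as the genes that rose here, and its part was not tested.

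Mast cell and eosinophil markers had the lowest median of the lists described here, -1.35 (-1.79 with all 6 libraries), although 1 of 12 passed. Kit, the receptor that mast cells need, was at 13.9, 11.9 and 19.3 CPM against 26.9, 21.8 and 22.9 CPM (log2 fold change -0.88 ± 0.13, adjusted p = 0.0339). At an unadjusted p under 0.05, 8 were lower and none higher. Among the mast cell proteases, which did not pass, libraries 23 and 55 differed from each other. Carboxypeptidase A3, Cpa3, was at 33.7, 13.1 and 1.10 CPM against 77.9, 57.4 and 65.5 CPM (log2 fold change -1.50 ± 0.34, adjusted p = 0.0877), and the chymase Cma1 at 31.97, 13.9 and 1.19 CPM against 76.8, 54.3 and 64.7 CPM (log2 fold change -1.49 ± 0.31, adjusted p = 0.0728). Tryptase Tpsb2 was at 23.4, 10.98 and 0.823 CPM against 59.2, 38.1 and 43.7 CPM (log2 fold change -1.44 ± 0.31, adjusted p = 0.0783). For these proteases the vehicle libraries were all below the uninjected ones and library 50 was near 1 CPM. The HFD PCN libraries were at 16.8, 5.18 and 8.46 CPM for Cpa3.

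Macrophage markers gave 1 call. Of 19 tested, Fcgr1, a high-affinity receptor for IgG, was the only one called, at 53.98, 68.9 and 4.94 CPM against 29.4, 35.8 and 30.8 CPM (log2 fold change 0.94 ± 0.13, adjusted p = 0.0293). It was higher in libraries 23 and 55 and lowest in library 50, and with all 6 libraries its log2 fold change was 0.42. Adgre1 differed little without library 50 (log2 fold change -0.07 ± 0.08, adjusted p = 0.709). The list's median was -0.10, and -0.59 with library 50. Among lipid-associated macrophage markers, 4 of 20 were lower and none higher at an unadjusted p under 0.05, and none passed. Cd9 was at 158, 185 and 21.2 CPM against 249, 223 and 236 CPM (adjusted p = 0.0737), with 10.7% of its exon bases shared with another gene, and the protease gene Ctsk at 394, 471 and 28.3 CPM against 666, 541 and 614 CPM (adjusted p = 0.113). Of the innate immune genes among the 172, Clec4d, a myeloid lectin, was at 23.01, 23.1 and 2.19 CPM against 95.7, 53.6 and 72.3 CPM and fell 3.20-fold (log2 fold change -1.68 ± 0.23, adjusted p = 0.0274). Clec7a, the receptor for fungal glucan, was at 86.8, 80.8 and 7.41 CPM against 122, 141 and 149.6 CPM (log2 fold change -0.71 ± 0.10, adjusted p = 0.033) and was named after its values were seen.

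**Figure D5:**
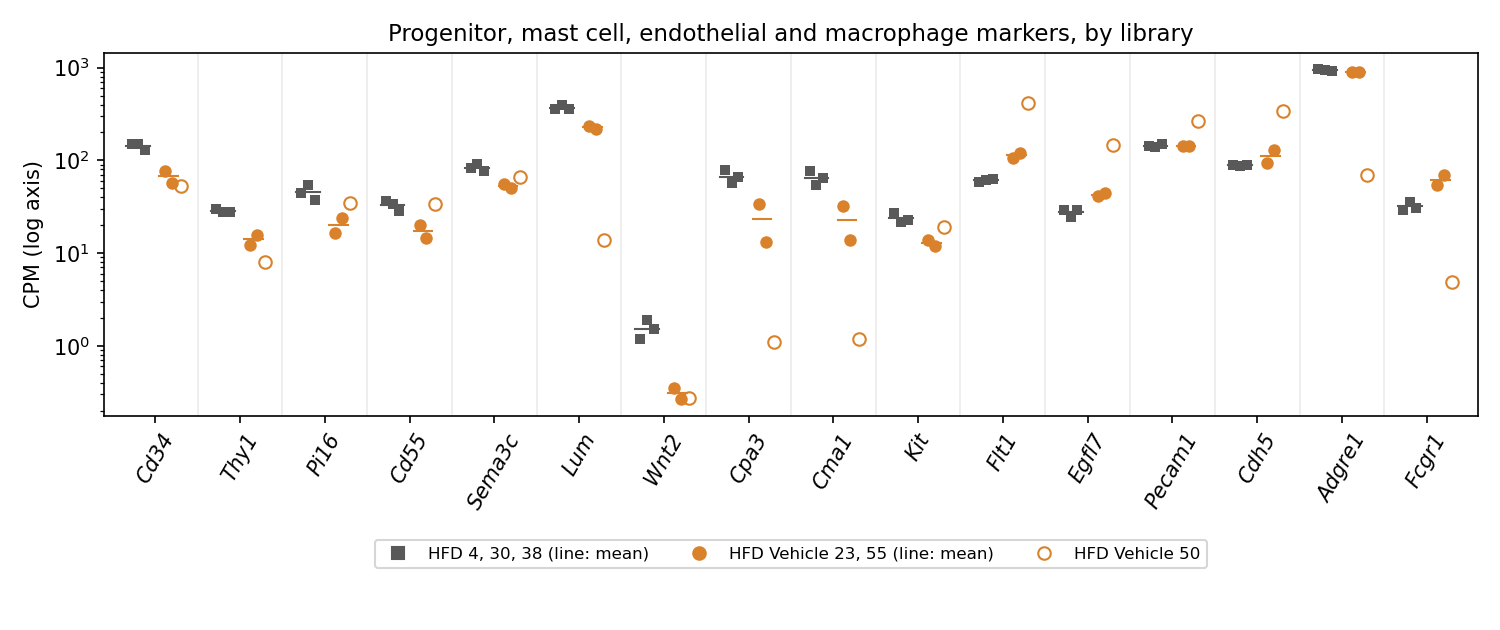
CPM (log axis) in each library for markers of progenitors, mast cells, endothelium and macrophages, with squares for HFD 4, 30 and 38, filled circles for HFD Vehicle 23 and 55, an open circle for HFD Vehicle 50, and lines at the means of the first 2 sets. The progenitor genes plotted are the 7 called lower, without the members that did not pass, so their lower place in libraries 23 and 55 was fixed by that choice. The mast cell genes plotted also lie lower in libraries 23 and 55 than in the uninjected ones. Flt1 and Egfl7, both called, lie higher. Library 50 departs from libraries 23 and 55 most for Lum, Cpa3, Cma1, Adgre1 and Fcgr1.

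Adipokines and other secreted factors rose in 3 of 19 tested members, with none lower and a list median of -0.01 (0.34 with all 6 libraries). Sfrp5, an inhibitor of Wnt signals made by adipocytes, was at 118, 139 and 237 CPM against 66.6, 61.3 and 57.8 CPM and rose 2.07-fold (log2 fold change 1.05 ± 0.10, adjusted p = 0.013). Adm, a vasodilator peptide, was at 25.7, 22.4 and 12.3 CPM against 10.03, 11.4 and 13.02 CPM (log2 fold change 1.08 ± 0.13, adjusted p = 0.0205), with library 50 within the uninjected range. The best known hormones of fat did not pass. Leptin was at 1368, 946 and 1262 CPM against 1458, 1322 and 1356 CPM (log2 fold change -0.25 ± 0.15, adjusted p = 0.459), and adiponectin at 629, 358 and 1178 CPM against 516, 380.3 and 349 CPM (log2 fold change 0.25 ± 0.24, adjusted p = 0.653). Of 27 tested genes of adipocyte identity none passed, and the median was 0.16 (0.62 with all 6 libraries). At an unadjusted p under 0.05, 3 were higher and 1 lower, beside 8.89% and 7.8% of all genes tested. The glycerol channel Aqp7 was at 123, 95.7 and 189.7 CPM against 68.1, 77.3 and 76.3 CPM (adjusted p = 0.07).

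The stress and hormone genes that could be tested gave few calls. Of 29 heat shock and chaperone genes, 18 were listed for both groups and tested, and none of these passed. At an unadjusted p under 0.05, 1 was higher and none lower, and the median log2 fold change was 0.23 (0.67 with all 6 libraries). Hspb1, a small heat shock protein, was at 37.6, 176 and 649 CPM against 35.3, 29.1 and 44.8 CPM (log2 fold change 1.55 ± 0.52, adjusted p = 0.207). Library 23 was within the uninjected range, while libraries 55 and 50 were far above it. Hspa8, the constitutive form of Hsp70, was at 1217, 2509 and 1819 CPM against 1291, 1274 and 1862 CPM (adjusted p = 0.612). The inducible Hspa1b, its relative Hspa1a, Hsph1 and Dnajb1 were not compared, nor were Hspa1l, Hsp90aa1, Dnaja1, Dnaja4, Bag3, Ahsa2 and Stip1. All of these were listed in the vehicle and PCN table only, so the result of the list does not cover them. On the scale of that table's own totals, Hspa1b was at 5.11, 739 and 1404 CPM in libraries 23, 55 and 50 and at 21.6, 41.9 and 71.9 CPM in HFD PCN 5, 11 and 27. Dnajb1 was at 28.1, 141 and 336 CPM and 43.9, 63.8 and 65.02 CPM in the same order. Library 23 was the lowest of the 6 for both genes and library 50 the highest.

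Among 22 glucocorticoid targets, 1 was called higher and none lower, with a median of 0.07 (-0.0049 with all 6 libraries). It was Gadd45g, a growth arrest gene, at 46.8, 55.1 and 67.1 CPM against 32.98, 30.2 and 32.4 CPM (log2 fold change 0.68 ± 0.10, adjusted p = 0.0316). The 2 most specific targets did not pass: Fkbp5, a chaperone of the receptor, was at 305, 182 and 339.99 CPM against 244, 213 and 208 CPM (adjusted p = 0.771), and Tsc22d3 at 489, 268 and 354 CPM against 487, 433 and 458 CPM (adjusted p = 0.569). The receptor itself, Nr3c1, was at 184, 184 and 195 CPM against 174, 183 and 191 CPM (adjusted p = 0.943). None of 28 immediate early genes passed, with 7 higher and 1 lower at an unadjusted p under 0.05. Ccn1, a matricellular early gene, was at 47.2, 69.2 and 156 CPM against 23.4, 19.5 and 34.6 CPM (log2 fold change 1.18 ± 0.24, adjusted p = 0.0691). Fos was at 94.9, 68.9 and 12.98 CPM against 77.5, 82.1 and 86.3 CPM (adjusted p = 0.997).

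Inflammatory and acute-phase genes gave 1 call between them. Of 24 cytokine and chemokine genes, Cxcl12, a stromal chemokine, was called higher at 113, 112 and 160.3 CPM against 62.9, 71.1 and 68.04 CPM (log2 fold change 0.74 ± 0.08, adjusted p = 0.0198), and all vehicle libraries were above all uninjected ones. The cytokine Il1b was at 0.31, 1.71 and 1.10 CPM against 0.398, 0.596 and 0.934 CPM (adjusted p = 0.688), and its groups overlapped. None of 14 acute-phase genes passed. Saa3, the serum amyloid made by mouse fat and macrophages, was at 13.1, 20.5 and 4.57 CPM against 14.3, 20.6 and 13.7 CPM (adjusted p = 0.956), and Serpina3n at 273, 346 and 206 CPM against 213, 181 and 171 CPM (log2 fold change 0.72 ± 0.13, adjusted p = 0.0525). None of 28 interferon-stimulated genes passed, and Oas2 was at 12.1, 22.7 and 34.5 CPM against 9.49, 11.9 and 10.5 CPM (adjusted p = 0.227). Of 13 neutrophil and monocyte markers none passed, with a median log2 fold change of -0.55 (-0.60 with all 6 libraries), and S100a8 was at 2.17, 4.16 and 0.823 CPM against 8.47, 8.80 and 7.88 CPM (log2 fold change -1.43 ± 0.26, adjusted p = 0.0525).

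In the remaining lists at most 1 member passed. No member passed among the 22 proteasome subunits, the 25 genes of the unfolded protein and integrated stress responses, the 27 of fatty acid oxidation, the 35 nuclear-encoded respiratory chain genes, the 26 cell cycle genes or the 17 mesothelial markers. The same was true of the 18 T, NK and B cell markers and the 8 tested markers of nearby tissues. The numbers at an unadjusted p under 0.05 were 8 lower proteasome genes, 10 lower respiratory chain genes, 7 higher cell cycle genes, 5 lower lymphocyte genes and 2 lower mesothelial genes, with none in the opposite direction. Over all genes tested 8.89% were higher and 7.8% lower at that p, and 2 of 17 mesothelial genes is near the latter share. The median log2 fold change of the T, NK and B cell list was -0.79 (-0.77 with all 6 libraries). That of the mesothelial list was -0.78, and 0.51 with all 6 libraries, so its sign turned on library 50. Among 14 markers of large peritoneal macrophages the one called was Wnt2, which the progenitor list also holds. The factor that defines those macrophages, Gata6, was at 7.88, 8.10 and 29.6 CPM against 6.16, 6.76 and 5.61 CPM (adjusted p = 0.275). The mesothelial gene Msln was at 3.61, 3.52 and 14.5 CPM against 5.76, 5.15 and 0.409 CPM, and its groups overlapped. Of 18 genes of xenobiotic metabolism, Aldh1a7, an aldehyde dehydrogenase, was called lower at 47.7, 37.00 and 32.3 CPM against 82.3, 67.6 and 70.2 CPM (log2 fold change -0.79 ± 0.13, adjusted p = 0.0477). The PCN receptor gene Nr1i2 was at 0.194, 0.0533 and 0 CPM against 0, 0 and 0.0584 CPM, under the expression filter. Of 10 thermogenic genes, Otop1, a proton channel gene, was called lower at 3.84, 4.27 and 0.914 CPM against 9.41, 8.13 and 10.9 CPM (log2 fold change -1.22 ± 0.18, adjusted p = 0.0328). Of 23 genes of hypoxia and glycolysis, 9 were lower and 2 higher at an unadjusted p under 0.05, and the one called was the Adm described above, which rose.

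Ranked by size and with predicted genes left out, the largest rises among called genes were of mixed function. Sctr, the secretin receptor, was at 3.65, 3.20 and 31.5 CPM against 0.978, 1.19 and 1.17 CPM and rose 3.09-fold (log2 fold change 1.63 ± 0.24, adjusted p = 0.0328). Unc45b, a myosin chaperone, was at 8.15, 11.4 and 58.4 CPM against 3.48, 3.75 and 2.86 CPM (log2 fold change 1.52 ± 0.20, adjusted p = 0.0272). Syt7, a calcium sensor of vesicle release, was at 4.70, 5.81 and 29.1 CPM against 1.88, 1.96 and 1.93 CPM (log2 fold change 1.44 ± 0.20, adjusted p = 0.0293), and the synaptic scaffold gene Shank3 at 56.1, 88.1 and 375 CPM against 27.2, 30.2 and 32.5 CPM (log2 fold change 1.27 ± 0.18, adjusted p = 0.0305). In these 4 genes library 50 was further above the uninjected libraries than 23 and 55. Tspoap1 was at 10.98, 17.2 and 5.85 CPM against 4.38, 5.05 and 5.26 CPM (log2 fold change 1.52 ± 0.21, adjusted p = 0.0274). The lymphatic growth factor Vegfd had the smallest p of all, with 29.5, 31.8 and 16.6 CPM against 12.9, 13.9 and 13.4 CPM (log2 fold change 1.19 ± 0.09, adjusted p = 0.013), and Vnn1, which releases pantothenate, was at 12.03, 13.1 and 6.04 CPM against 5.90, 5.54 and 4.21 CPM (log2 fold change 1.25 ± 0.17, adjusted p = 0.0269). For the last 3 library 50 lay closer to the uninjected libraries than 23 and 55 did. The integrin subunit Itgb4 was at 7.95, 9.76 and 19.8 CPM against 3.22, 4.24 and 3.04 CPM (log2 fold change 1.32 ± 0.20, adjusted p = 0.0343). The Notch ligand Dll1 was at 9.27, 7.62 and 24.9 CPM against 3.91, 3.36 and 2.86 CPM (log2 fold change 1.31 ± 0.19, adjusted p = 0.0316), with 20.6% of its exon bases shared with another gene.

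Beside Vegfd and Gm26917, the 5 smallest p values were those of Pdzd2, Cacna1e and Tns2. Pdzd2, a protein with PDZ domains, was at 146, 151 and 759.99 CPM against 77.6, 76.3 and 81.9 CPM (log2 fold change 0.92 ± 0.07, adjusted p = 0.013). Cacna1e, a calcium channel subunit, was at 77.1, 82.1 and 232 CPM against 34.03, 39.7 and 38.02 CPM (log2 fold change 1.09 ± 0.09, adjusted p = 0.013), and Tns2, an adaptor at focal adhesions, at 148, 139 and 579 CPM against 79.9, 79.8 and 72.8 CPM (log2 fold change 0.89 ± 0.08, adjusted p = 0.013). Within each of these genes libraries 23 and 55 were close to each other, and library 50 was higher than both.

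Among called genes without predicted ones (symbols ending in Rik among them), the largest falls were led by Mgam, which fell 5.65-fold (log2 fold change -2.50 ± 0.24, adjusted p = 0.013). H19, an imprinted noncoding RNA, was at 0.388, 0.267 and 0 CPM against 1.67, 1.89 and 1.99 CPM (log2 fold change -2.44 ± 0.34, adjusted p = 0.0293), on 10, 5 and 0 counts in the vehicle libraries and 46, 54 and 34 counts in the uninjected ones. Spon2, a secreted matrix protein, was at 1.63, 1.49 and 2.65 CPM against 6.92, 8.06 and 5.37 CPM (log2 fold change -2.12 ± 0.24, adjusted p = 0.0201). Serpinb9b, a protease inhibitor, was at 17.1, 27.4 and 1.28 CPM against 85.2, 60.3 and 71.6 CPM (log2 fold change -1.71 ± 0.22, adjusted p = 0.025), and the collagen gene Col8a2 at 2.06, 1.92 and 3.47 CPM against 4.82, 7.43 and 5.26 CPM (log2 fold change -1.55 ± 0.26, adjusted p = 0.0452). Gys2, the liver form of glycogen synthase, was at 8.03, 5.86 and 1.83 CPM against 18.2, 17.6 and 19.9 CPM (log2 fold change -1.40 ± 0.15, adjusted p = 0.0198). Cx3cr1, the receptor of fractalkine on monocytes and macrophages, was at 1.55, 1.55 and 2.29 CPM against 4.67, 4.03 and 3.39 CPM (log2 fold change -1.38 ± 0.24, adjusted p = 0.0477). In all of these genes each vehicle library, library 50 included, was below each uninjected library.

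The HFD PCN libraries share both the injection schedule and the deposited table with the vehicle libraries, and these cannot be told apart. A contrast of HFD PCN with HFD would also use the same uninjected libraries. The HFD PCN levels are therefore set beside this comparison as values only. Gclm was at 30.00, 24.3 and 29.8 CPM in HFD PCN 5, 11 and 27, Insig1 at 124, 174 and 147 CPM and Cd34 at 87.6, 122 and 95.6 CPM. Flt1 was at 116, 200.5 and 189.9 CPM, Sfrp5 at 141, 282 and 219.8 CPM and Gm26917 at 10891, 8839.8 and 16949 CPM. In Chow 8, 17 and 19 Gclm was at 30.1, 23.8 and 24.1 CPM, Insig1 at 149.8, 71.5 and 77.5 CPM and Cd34 at 115, 69.3 and 69.3 CPM. There Flt1 was at 271, 305 and 279 CPM, Sfrp5 at 254, 152 and 68.1 CPM and Gm26917 at 12731, 31653 and 82121 CPM. These 6 genes were picked from the called ones and do not stand for them. Fcgr1 and Svep1 were picked because they went the other way, and do not stand for the called genes either. Both were called higher after vehicle and were below the uninjected HFD libraries in Chow. Fcgr1 was at 2.68, 3.84 and 1.71 CPM and Svep1 at 361, 396 and 224 CPM in Chow 8, 17 and 19. A contrast of Chow with HFD would use the same HFD libraries as the vehicle contrast, so no count of shared directions is given.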

How the data were processed

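RNA of 12 libraries in 4 groups of 3 was sequenced, and the 6 libraries of HFD Vehicle and HFD were compared. The authors deposited 2 tables of whole-number counts of reads per gene, made with HISAT2 and HTSeq on GRCm38 (mm10), per the submitters' processing notes, which also name DESeq2. Tool versions and strand use are not given in the sources used here. A named gene is therefore marked uncertain when another gene covers over 10% of its exon bases. Of the genes listed, 28008 are in both tables, and 2445 and 2319 in 1 table only were not compared. They held 0.0578% to 1.46% of a library's counts. Depth was 11090117 to 27408092 counts in the 6 libraries, and the chi-square per degree of freedom between library pairs was 6.90 to 319, above sampling noise for each pair. It was 6.90 to 9.45 between HFD libraries and 28.6 between HFD Vehicle 23 and 55. Between either of these and an HFD library it was 27.0 to 38.8, so the 2 kept vehicle libraries differed from each other about as much as from uninjected ones.

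For testing, edgeR 4.0.16 in R 4.3.3 was run on the counts (quasi-likelihood test, TMM scaling over the libraries of each fit, filterByExpr defaults, Benjamini-Hochberg adjustment over all genes tested at 0.05). "Called" and "passed" mean an adjusted p under 0.05, and errors of log2 fold changes are standard errors recovered from the F statistic. Unless stated otherwise, fold changes and adjusted p are from the fit without HFD Vehicle 50. On simulated counts with known changes, 2-fold changes were found in 4.12% of cases and 4-fold changes in 54.6%, among 16559 genes with all 6 libraries. Without HFD Vehicle 50 these shares were 68.4% and 92.9% among 17079 genes. Unchanged genes called numbered 4 with all 6 libraries and 13 without HFD Vehicle 50. The simulated libraries of a gene shared 1 spread, with no outlying library and no unequal spread between groups. These shares may therefore not hold for the measured libraries. Alternatives were DESeq2 1.42.0, limma-voom (limma 3.58.1), other scalings, filters and thresholds, all groups in 1 fit, and leaving out each library.

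The text names up to 10 genes that rose most and 10 that fell most, taken from called genes with a mean of at least 1 CPM and without overlap between groups, predicted genes aside. It also names the 5 smallest p of each fit, up to 4 called members of each of 32 gene lists (2 of the smallest p where none was called), and a fixed set. Genes outside that rule are marked as named after their values were seen. In groups described with many members, further members are given with their values whether or not they passed. The comparison, the lists and the rule were chosen with earlier results of these data known. Values of a few single members of the lists are not reported here.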

Additional observations from a re-analysis of the deposited data

How the results depend on the processing

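With all 6 libraries, 14 of 17 alternatives also called 0 genes. The exceptions were DESeq2 (91 genes, 48 higher and 43 lower), limma-voom with quality weights (1 gene, higher) and leaving out HFD Vehicle 50 (172 genes, 100 higher and 72 lower), so leaving out 1 library gave 0 to 172 calls. Without HFD Vehicle 50, 5 of 16 alternatives called within 1.5 times of the 172 genes. DESeq2 called 708 (397 higher, 311 lower), no filter on low counts 694 (398 and 296), an adjusted p of 0.1 gave 560 (319 and 241), and limma-voom with quality weights gave 62 (39 and 23). A fold threshold of 1.5 and all groups in 1 fit gave 0 each. Leaving out 1 more library gave 0 to 2221 calls, 0 to 1278 higher and 0 to 943 lower. Where 1 vehicle library was left, it was assumed to vary like the uninjected libraries. All 172 genes kept the direction of their fold change in each of the 16 alternatives. Their groups did not overlap, so on the same counts this was nearly fixed beforehand and adds no support. Of the 95 named genes tested, 53 were called without HFD Vehicle 50, none of them in the 5 alternatives with 0 calls. The cause of these moves was not tested. Depth limits low genes such as Wnt2 (3 to 54 counts) and H19 (0 to 54 counts). No paired analysis was possible because the groups share no replicate numbers.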
